A study of Mus musculus with 8 samples.

Results

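The 45 genes described here encode the proteins that copy DNA in S phase, the part of the cell cycle in which the genome is duplicated. They were chosen by name, for their known roles in origin licensing, fork movement, nucleotide supply and S phase entry. Of the 45, 42 had a probe named in the annotation used, and 38 of these passed the detection filter, out of 16593 annotated genes with a probe and 7501 genes past the filter in the whole series. The filter asked for a detection p-value under 0.01 on at least 2 of 8 arrays. Gins1, Gins2 and Rfc3 were not analysed here for want of a named probe, and Orc1, Pola1, Pole2 and Slbp were detected on 0 of the 8 arrays.

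The study asked how Delta-like 4, a ligand of the Notch receptors, alters gene expression in CD4+ T cells during their first activation. Naive CD4+ T cells (CD62L+, CD44-, CD25- and DX5-) from lymph nodes and spleen of C57BL6/NCrl mice were sorted and stimulated through CD3e with plate-bound antibody and through CD28 with soluble antibody, which together mimic antigen and costimulation. The submitters' texts differ on whether the CD3e antibody was plate-bound or soluble. The treatment protocol, which has it plate-bound, was followed here. All wells had both antibodies, and they differed in a plate-bound protein, either Delta4-Ig, a fusion of the ligand with an immunoglobulin tail, or control Ig. The groups were Delta4-Ig at day 3 (mouse 1, mouse 2), control Ig at day 3 (mouse 1, mouse 2), Delta4-Ig at day 1 (mouse 1) and control Ig at day 1 (mouse 1). Mouse 1 had 2 technical arrays per stimulus at day 3, which were averaged, so 8 Illumina arrays on 1 chip stood for 6 samples from 2 mice. The 2 mice are separate animals, but 1 animal alone was sampled at day 1, so every comparison of days sets day 3 against a single mouse.

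A cell licenses its replication origins before S phase by loading the ring of Mcm2 to Mcm7, the core of the replicative helicase, with the help of the origin recognition complex, Cdc6 and Cdt1. Cyclin E with its kinase, and the E2F factors that act beside it, carry the cell into S phase, where Cdc45 and the GINS proteins activate the helicase and polymerases alpha, delta and epsilon copy the strands. Ribonucleotide reductase, thymidylate synthase, thymidine kinase and dUTPase supply and guard the nucleotide pool. A resting naive T cell holds little of this machinery, and T cell receptor signalling with costimulation builds it before the first division. In RNA from a whole culture, fewer cells in S phase and less RNA per cell cannot be told apart.

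Many S phase genes are known targets of the E2F factors and of NF-Y, a factor that binds the letters CCAAT, so their promoters are shown for 4 members whose levels are described below. RefSeq promoter windows of build GRCm38.p6, which run from 250 bases before to 50 after a start, were at hand for 37 of the 45 genes. Missing were Ccne2, Gins1, Gins2, Gmnn, Mcm4, Pole, Prim2 and Rfc2. The letters TTTCGCGC, TTTGGCGC, TTTCCCGC or TTTGCCGC, searched on both strands as an E2F motif and able to overlap each other, were found in the windows of 13 of the 37 members (35.1%), against 2.61% of 27025 genes. CCAAT on either strand was found in 22 of the 37 (59.5%), against 41.1% of all genes. The E-box CACGTG was found in 7 (18.9%, against 8.09%), and the letters TTTGAA of the cell cycle homology region in 4 (10.8%, against 20.2%). These matches are a description of letters and show no binding. Below, the stretches of Mcm5 (chr8:75109332-75109391, plus strand) and Mcm6 (chr1:128359721-128359839, minus strand) lie upstream of the helicase genes, with the E2F letters in capitals.
Mcm5: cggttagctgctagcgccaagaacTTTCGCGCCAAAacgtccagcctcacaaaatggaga
Mcm6: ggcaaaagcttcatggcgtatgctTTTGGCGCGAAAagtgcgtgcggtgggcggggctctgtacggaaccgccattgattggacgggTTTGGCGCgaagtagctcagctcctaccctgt
The stretches of the ribonucleotide reductase genes Rrm2 (chr12:24708134-24708253, plus strand) and Rrm1 (chr7:102441575-102441694, plus strand), which end at the base before the start, have CCAAT in capitals. Neither window held the E2F letters above, but that of Rrm1 held the shorter E2F letters GCGGGAA on the other strand. The windows of Mcm5 and Mcm6 also held CCAAT on either strand, which is not in capitals above.
Rrm2: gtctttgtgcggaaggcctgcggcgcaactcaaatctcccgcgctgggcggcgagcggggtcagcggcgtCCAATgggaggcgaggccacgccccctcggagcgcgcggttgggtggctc
Rrm1: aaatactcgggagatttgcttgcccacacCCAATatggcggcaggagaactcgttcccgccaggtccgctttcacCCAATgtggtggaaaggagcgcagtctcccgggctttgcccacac

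Values are the authors' normalized log2 levels. A difference of 1 is 2-fold, and levels of different probes were not compared with each other. Per array, 8940 to 10543 of 25697 probes were detected. The largest number was on the Delta4-Ig array of mouse 2 at day 3, which also stood apart in the S phase genes: it was the lowest of the day 3 samples for 33 of the 38 genes, against 39.5% of all genes. The medians of the day 3 difference, and of the change with day compared between stimuli, are given with and without it. Most other results that rest on it are given only with it. Cd4, Cd3e and 6 other CD4 T cell markers were detected on every array, and 8 myeloid markers on none. Of 8 B cell markers only Fcer2a was detected at day 1 and only Cd79b at day 3. Of 7 markers of natural killer and CD8 T cells, Cd8b1, Klrd1 and Klrk1 were detected. The others, Cd8a, Ncr1, Klrb1c and Klre1, were not. The summed linear level of all 7 ran from 864 to 2243 in Delta4-Ig and from 761 to 1419 in control Ig samples at day 3. All 3 detected markers were higher in mouse 2 than in mouse 1. The differences were 1.08 to 3.82 on the log2 scale with Delta4-Ig and 0.86 to 2.06 with control Ig. Of the 3, 1 passed the test between mice that is used below. Of the 8 CD4 T cell markers, 7 were higher with Delta4-Ig than with control Ig in mouse 2 at day 3 (median 0.62) and 4 in mouse 1 (median -0.07). The part of these markers in the results below was not tested.

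**Figure D1:**
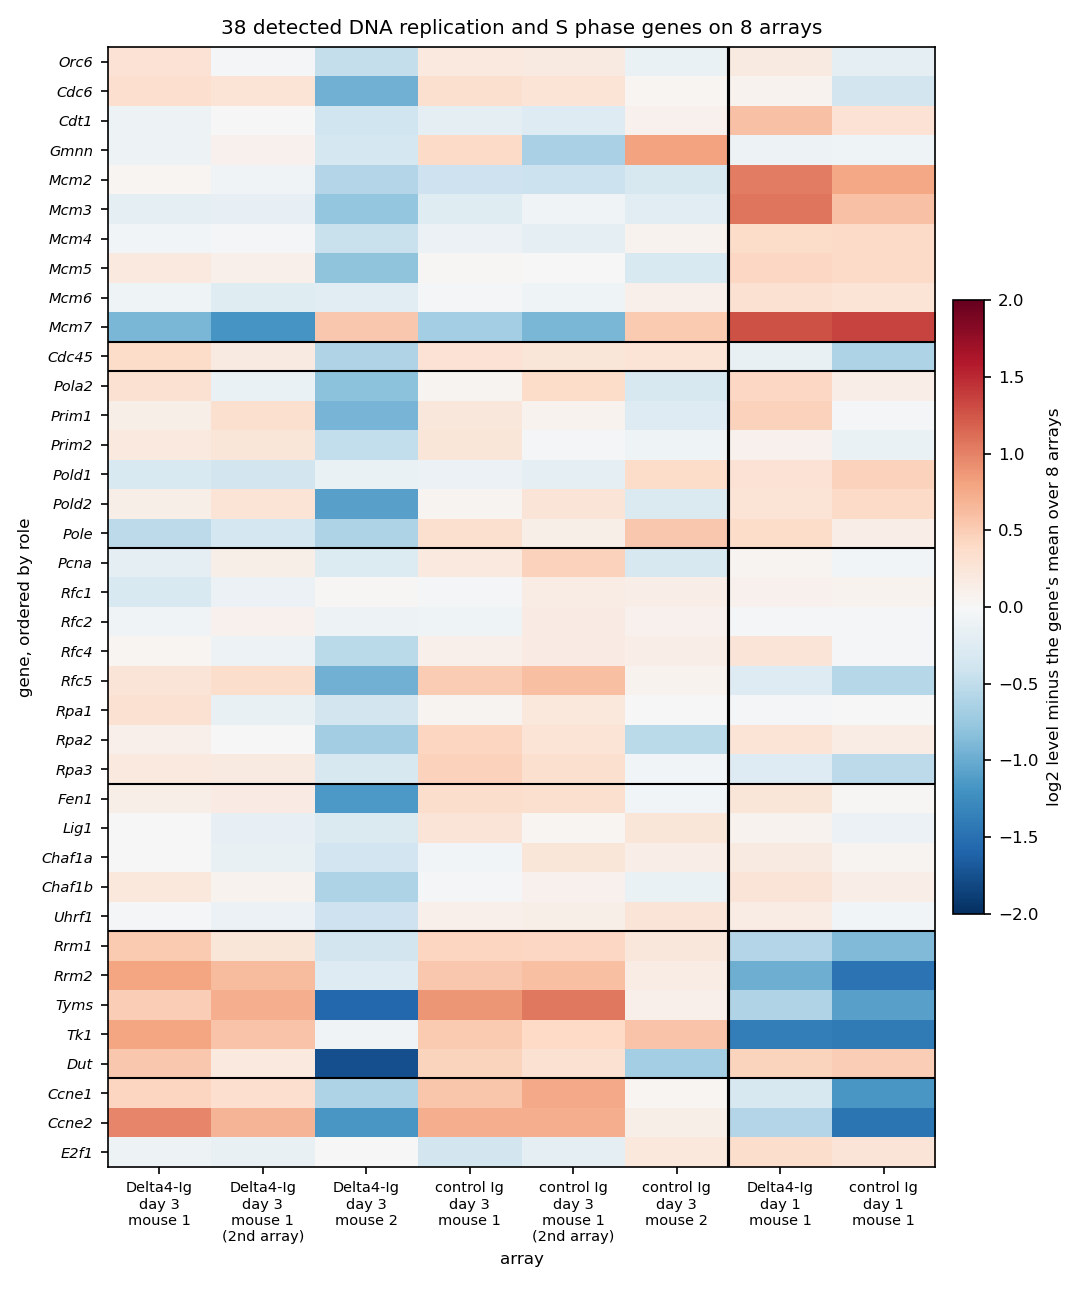
Normalized log2 level of the 38 detected genes (rows, grouped by role from licensing at the top to S phase entry at the bottom) on each of the 8 arrays (columns), less the gene's own mean over the 8 arrays. The third column, Delta4-Ig at day 3 in mouse 2, is the lowest day 3 sample for 33 of the genes. The 2 day 1 columns on the right are high for Mcm2, Mcm3 and Mcm7 and low for Rrm2, Tk1 and Ccne2.

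At day 3 the S phase genes were lower on average with Delta4-Ig than with control Ig, but the difference was small in mouse 1 and larger in mouse 2, and no gene passed the test. The mean log2 difference was below 0 for 37 of the 38 genes, with a median of -0.29 against -0.05 over all genes. In mouse 1 the median was -0.05 with 15 genes higher and 23 lower, and in mouse 2 it was -0.52 with 2 higher and 36 lower. Without the Delta4-Ig sample of mouse 2 the median was 0.02, with 15 of 38 lower. Each gene was read here from its probe of highest mean. Both mice were lower for 21 genes and both were higher for 0, against 32.3% and 26.4% of all genes.

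With limma, 0 of the 38 passed an adjusted p of 0.05 in a fit of the 4 groups of stimulus and day, where 0% of all probes passed. Of the 38, 0 passed when the mouse was added as a block, the blocked fit below, where 0.763% of all probes did. At an unadjusted p under 0.05 the counts were 0 without the block and 2 with it, against 238 and 778 of all 7501 genes. In mouse 1, 0 of the 38 genes were at least 2-fold higher or lower, against 3.92% and 3.31% of all genes. In mouse 2, 0 were at least 2-fold higher and 7 at least 2-fold lower, against 8.68% and 9.69% of all genes. The 7 include Gmnn, which was not well above background on any Delta4-Ig array and is described below; the other 6 were Pole, Rfc5, Fen1, Tyms, Dut and Ccne2. The Delta4-Ig and control Ig samples did not overlap for 8 genes, lower in each case with Delta4-Ig, against 12.9% of all genes, and 0 were higher without overlap, against 12.7%. These were Mcm6, Pole, Rfc1, Rfc2, Rfc4, Lig1, Chaf1a and Uhrf1, each by its probe of highest mean. Other probes detected on 8 arrays overlapped for 3 of them. Those probes were higher with Delta4-Ig in mouse 1 for Rfc4 (0.02) and Mcm6 (0.01 and 0.06), and in mouse 2 for Lig1 (0.09). The remaining detected probes of Mcm6 and Lig1 were lower in both mice.

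**Figure D2:**
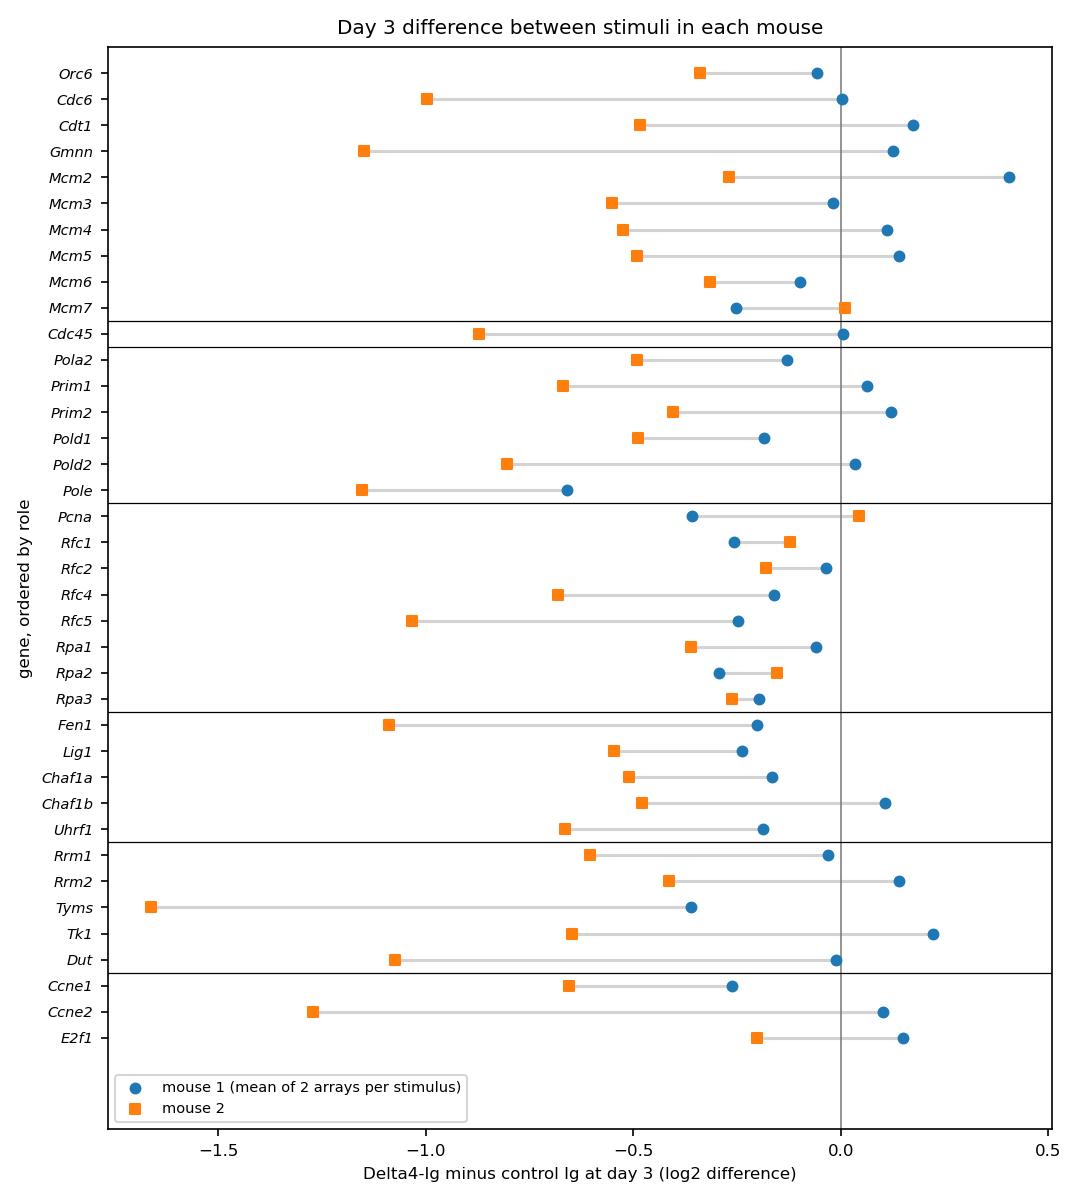
Delta4-Ig minus control Ig at day 3 (log2 difference, horizontal axis) for each of the 38 genes, in mouse 1 (circles, mean of 2 arrays per stimulus) and mouse 2 (squares). Most circles lie near 0 (median -0.05) and most squares to the left of it (median -0.52), and Pole is the gene for which both lie beyond -0.5.

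Among the licensing genes, differences with Delta4-Ig were small in mouse 1 and mostly negative in mouse 2. The 10 genes had a median difference of 0.06 in mouse 1 and of -0.49 in mouse 2, and 3 of the 10 were lower in both. Mcm2, a helicase subunit, stood at 11.32 and 10.74 with Delta4-Ig in mouse 1 and mouse 2, against 10.91 and 11.01 with control Ig. It was the gene whose mean difference lay above 0, at 0.07. Mcm5, another subunit, stood at 13.69 and 12.74 with Delta4-Ig, against 13.55 and 13.23 with control Ig. Cdc6, which loads the helicase, stood at 10.88 and 9.61 with Delta4-Ig, against 10.87 and 10.61 with control Ig. For all 3 genes the samples of the stimuli overlapped, and the low value was the Delta4-Ig sample of mouse 2.

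Gmnn, which encodes geminin, the inhibitor of Cdt1, was at the edge of detection. It was detected on 0 of 3 Delta4-Ig arrays and 2 of 3 control Ig arrays at day 3, and on neither day 1 array, so it passed the filter through the control Ig samples alone. Its measured means at day 3 were 5.82 ± 0.24 with Delta4-Ig and 6.34 ± 0.66 with control Ig (SD, n = 2 mice). The difference was 0.13 in mouse 1 and -1.15 in mouse 2, and since the Delta4-Ig values are not well above background, no fold is drawn from it. Cdc45, the helicase activator, had the same level in mouse 1 under both stimuli, 10.80 each, and stood at 9.93 with Delta4-Ig against 10.80 with control Ig in mouse 2.

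Pole, the catalytic subunit of leading-strand polymerase epsilon, was the only gene at least 0.5 lower with Delta4-Ig in both mice. Its level was 9.98 in mouse 1 and 9.81 in mouse 2 with Delta4-Ig, against 10.64 and 10.96 with control Ig, so the samples did not overlap. The difference was -0.91 ± 0.32 (SE of the blocked fit, limma adjusted p = 0.405), and -0.91 ± 0.36 without the block (adjusted p = 1.00). It was the smallest adjusted p of the 38 genes in the blocked fit and did not pass. The 6 detected polymerase and primase genes had a median difference of -0.05 in mouse 1 and -0.58 in mouse 2. Prim1, the catalytic primase subunit, stood at 7.59 and 6.44 with Delta4-Ig, against 7.52 and 7.11 with control Ig.

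Pcna, the sliding clamp that tethers polymerases to DNA, stood at 9.83 in mouse 1 and 9.59 in mouse 2 with Delta4-Ig, against 10.19 and 9.55 with control Ig. The difference was -0.16 ± 0.32 (SE of the blocked fit), and the mice differed in sign. Rfc5, a subunit of the clamp loader, stood at 10.98 and 9.71 with Delta4-Ig, against 11.23 and 10.74 with control Ig. Its difference of -0.64 ± 0.34 did not pass (limma adjusted p = 0.611, blocked). Of the 8 genes for the clamp, the clamp loader and the RPA proteins that coat single strands, 7 were lower in both mice, all but Pcna. This holds for each gene's probe of highest mean. A second Rfc4 probe, detected on 8 arrays, gave 0.02 in mouse 1 and -0.64 in mouse 2. A second Rpa2 probe, also detected on 8 arrays, was higher with Delta4-Ig in both mice, by 0.04 in mouse 1 and 0.13 in mouse 2. Over the 8 genes the median was -0.22 in each mouse.

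Fen1, the nuclease that trims the flaps of Okazaki fragments, stood at 12.34 and 11.06 with Delta4-Ig in mouse 1 and mouse 2, against 12.54 and 12.14 with control Ig. The difference of -0.64 ± 0.35 did not pass (limma adjusted p = 0.616, blocked). The ligase gene Lig1, the chromatin assembly gene Chaf1a and Uhrf1, which carries DNA methylation through replication, were lower in both mice without overlap of the stimuli, by mean differences of -0.39, -0.34 and -0.43. None of the 3 passed the test. For Lig1 this holds for its probe of highest mean. Another Lig1 probe, detected on 8 arrays, differed in sign between the mice, with -0.43 in mouse 1 and 0.09 in mouse 2. The remaining detected Lig1 probes were lower in both mice.

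The nucleotide supply genes held the largest difference. Tyms, which encodes thymidylate synthase, stood at 11.56 in mouse 1 and 9.39 in mouse 2 with Delta4-Ig, against 11.92 and 11.05 with control Ig. The difference was -0.36 in mouse 1 and -1.66 in mouse 2, and the mean of -1.01 ± 0.39 did not pass (limma adjusted p = 0.461, blocked). The other 3 detected Tyms probes were lower in both mice as well, with -0.34 and -2.22, -0.49 and -1.92, and -0.01 and -0.10 in mouse 1 and mouse 2. The platform annotation also names a pseudogene, Tyms-ps, and how far its RNA reaches the Tyms probes was not tested.

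Dut, the dUTPase that keeps uracil out of DNA, stood at 8.44 and 6.33 with Delta4-Ig, against 8.46 and 7.40 with control Ig. Mouse 1 thus showed a difference of -0.01 and mouse 2 of -1.08. Rrm2, the regulated subunit of ribonucleotide reductase, stood at 10.85 and 9.89 with Delta4-Ig, against 10.71 and 10.30 with control Ig. A second Rrm2 probe gave 0.54 in mouse 1 and 0.10 in mouse 2, where the representative one gave 0.14 and -0.41, so the sign of the Rrm2 mean differed between probes.

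Of the S phase entry genes, Ccne2, which encodes cyclin E2, stood at 9.02 in mouse 1 and 7.03 in mouse 2 with Delta4-Ig, against 8.92 and 8.31 with control Ig. The mean difference was -0.58 ± 0.40 (limma adjusted p = 0.709, blocked), and it was 0.10 in mouse 1 and -1.27 in mouse 2. Ccne1, for cyclin E1, stood at 8.03 and 7.02 with Delta4-Ig, against 8.29 and 7.67 with control Ig. E2f1, an E2F factor that activates S phase genes, stood at 10.51 and 10.64 with Delta4-Ig, against 10.36 and 10.85 with control Ig, a mean difference of -0.03 ± 0.32. The samples of the stimuli overlapped for these 3 genes.

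At day 1 each stimulus had 1 sample, so the difference was not tested by itself. The S phase genes leaned the other way from the day 3 mean of both mice. Of the 38, 30 were higher with Delta4-Ig and 8 lower, with a median of 0.21 against -0.01 over all genes. Of the 38, 0 were at least 2-fold higher and 0 at least 2-fold lower, against 0.867% and 0.56% of all genes. The largest differences were those of the cyclin E genes. Ccne2 stood at 7.61 with Delta4-Ig and 6.73 with control Ig, a difference of 0.88, and Ccne1 at 7.32 and 6.47, a difference of 0.85. Rrm2 stood at 9.17 with Delta4-Ig and 8.67 with control Ig, and Prim1 at 7.84 and 7.34, differences of 0.50 each. The 2 technical arrays of mouse 1 at day 3 differed by -0.45 to 0.29 with Delta4-Ig and by -1.03 to 0.31 with control Ig for the 38 genes, the -1.03 being that of Gmnn. The SD over all genes was 0.345 for the day 1 difference, 0.275 for the technical arrays with Delta4-Ig and 0.267 for those with control Ig.

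By role, the licensing genes had a median of 0.15 at day 1, with Mcm3 at 0.48 and Cdc6 at 0.43 the largest and Mcm7 at -0.07 the lowest. The 5 genes of fragment joining and chromatin assembly were all higher, by 0.12 to 0.21. The nucleotide supply genes had a median of 0.30 and the 3 S phase entry genes one of 0.85.

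The change with day under Delta4-Ig, less that under control Ig, was put to a test of its own. It was below 0 for each of the 38 genes, with a median of -0.50 against -0.05 over all genes, where 53.5% were below 0. It passed for 0 of the 38 in either limma fit, and 0% of all probes passed in either. The adjusted p of the 38 was 0.999 or above in both limma fits. At an unadjusted p under 0.05 there were 0 genes without and 1 with the block, against 48 and 274 of all 7501 genes. The largest values were -1.50 ± 0.68 for Tyms, -1.47 ± 0.69 for Ccne2, -1.31 ± 0.55 for Ccne1 and -1.13 ± 0.56 for Pole (SE of the blocked fit). This contrast holds the same samples as the day 3 and day 1 differences and is no separate evidence. Without the Delta4-Ig sample of mouse 2 the median was -0.24, with 29 of 38 below 0.

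**Figure D3:**
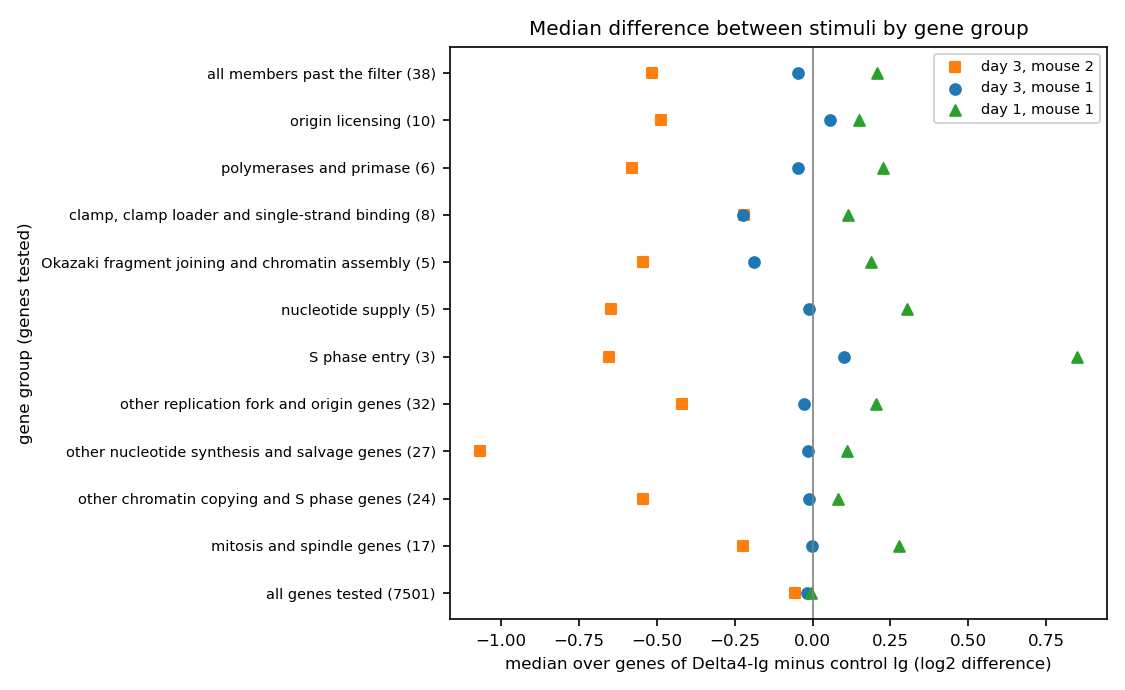
Median over genes of Delta4-Ig minus control Ig (log2 difference, horizontal axis) for the 38 genes, for their role groups with at least 3 detected genes, for 4 related gene lists and for all 7501 genes, at day 3 in mouse 2 (squares), at day 3 in mouse 1 (circles) and at day 1 in mouse 1 (triangles). For the 38 genes the medians are -0.52, -0.05 and 0.21, and the squares lie below -0.4 in each role group but the clamp and clamp loader genes.

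At day 3 mouse 2 lay below mouse 1 for 34 of the 38 genes in the Delta4-Ig samples and for 21 in the control Ig samples. The difference, mouse 2 minus mouse 1, had a median of -0.60 under Delta4-Ig and of -0.16 under control Ig, against -0.06 and -0.03 over all genes. Mouse 2 was lower under both stimuli for 21 genes and higher under both for 4, or 55.3% and 10.5%, against 39.0% and 34.0% of all genes. In the blocked limma fit, 0 of the 38 passed, where 4.03% of all probes did. At an unadjusted p under 0.05 the count was 9 of the 38, against 1971 of all 7501 genes.

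The closest was Mcm7, a helicase subunit, which stood at 10.04 in mouse 2 and 8.45 in mouse 1 with Delta4-Ig, and at 10.03 and 8.70 with control Ig. It was 1.46 ± 0.31 higher in mouse 2 (SE, limma adjusted p = 0.0506). Dut was 1.58 ± 0.37 lower in mouse 2 (adjusted p = 0.0592), and Tyms 1.52 ± 0.39 lower (adjusted p = 0.0719). For these genes mouse 2 was on the same side of mouse 1 under both stimuli. The other 5 helicase subunits differed between mice by -0.95 to 0.22 under either stimulus, so Mcm7 stood alone among them in its size.

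Between days, 3 of the 5 genes for nucleotide supply and the cyclin E2 gene rose and Mcm7 fell, in the test that holds the mouse constant. In the blocked fit, 5 of the 38 genes passed, 4 higher and 1 lower at day 3, where 8.24% of all probes passed (4.85% higher and 3.39% lower). Without the block 0 of the 38 passed (0% of all probes, smallest limma adjusted p = 0.156). At an unadjusted p under 0.05 there were 4, against 1067 of all 7501 genes. Because day 1 has mouse 1 only, the blocked estimate equals the mean change within mouse 1, so these calls rest on 1 animal. The SE behind them joins the spread of the gene's day 3 samples, with 1 residual degree of freedom, to a spread pooled by limma over all probes kept. The pooled part has 6.16 degrees of freedom and so the larger weight. With 1 residual degree of freedom, the blocked fit could not be repeated without any of the day 3 samples.

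Tk1, thymidine kinase of the salvage pathway (chr11:117815519-117826087, GRCm38.p6), stood at 11.60 in mouse 1 and 10.84 in mouse 2 with Delta4-Ig at day 3, and at 11.37 and 11.49 with control Ig, against 9.54 and 9.50 at day 1 with Delta4-Ig and control Ig. It rose by 1.96 ± 0.35 (SE, 3.90-fold, limma adjusted p = 0.0181, blocked). Rrm2 (chr12:24708254-24714146), whose day 3 values are above, stood at 9.17 and 8.67 at day 1 and rose by 1.86 ± 0.32 (3.64-fold, limma adjusted p = 0.0173). For both genes every day 3 sample lay above both day 1 samples. Rrm1, the partner subunit of Rrm2, stood at 12.58 and 11.82 with Delta4-Ig and at 12.61 and 12.43 with control Ig at day 3, against 11.61 and 11.31 at day 1. Its days did not overlap either, but its change of 1.14 ± 0.33 did not pass (limma adjusted p = 0.0814).

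Ccne2 (chr4:11190433-11204779) stood at 7.61 with Delta4-Ig and 6.73 with control Ig at day 1 and rose by 1.80 ± 0.40 (3.49-fold, limma adjusted p = 0.0391, blocked). Tyms (chr5:30038546-30073645) stood at 10.36 and 9.87 at day 1 and passed narrowly, by 1.63 ± 0.39 (3.09-fold, limma adjusted p = 0.0499). For these 2 genes the days overlapped, because the Delta4-Ig sample of mouse 2 at day 3 lay below the Delta4-Ig sample of mouse 1 at day 1, by 0.57 for Ccne2 and 0.97 for Tyms. The other detected Tyms probes did not all go up. Within mouse 1 they changed by 1.00, -0.12 and 0.04 with Delta4-Ig and by 2.13, -0.10 and 0.50 with control Ig. The call for Tyms thus holds for its representative probe. Ccne1 had 7.32 and 6.47 at day 1, and its change of 1.26 ± 0.32 did not pass (limma adjusted p = 0.0561).

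**Figure D4:**
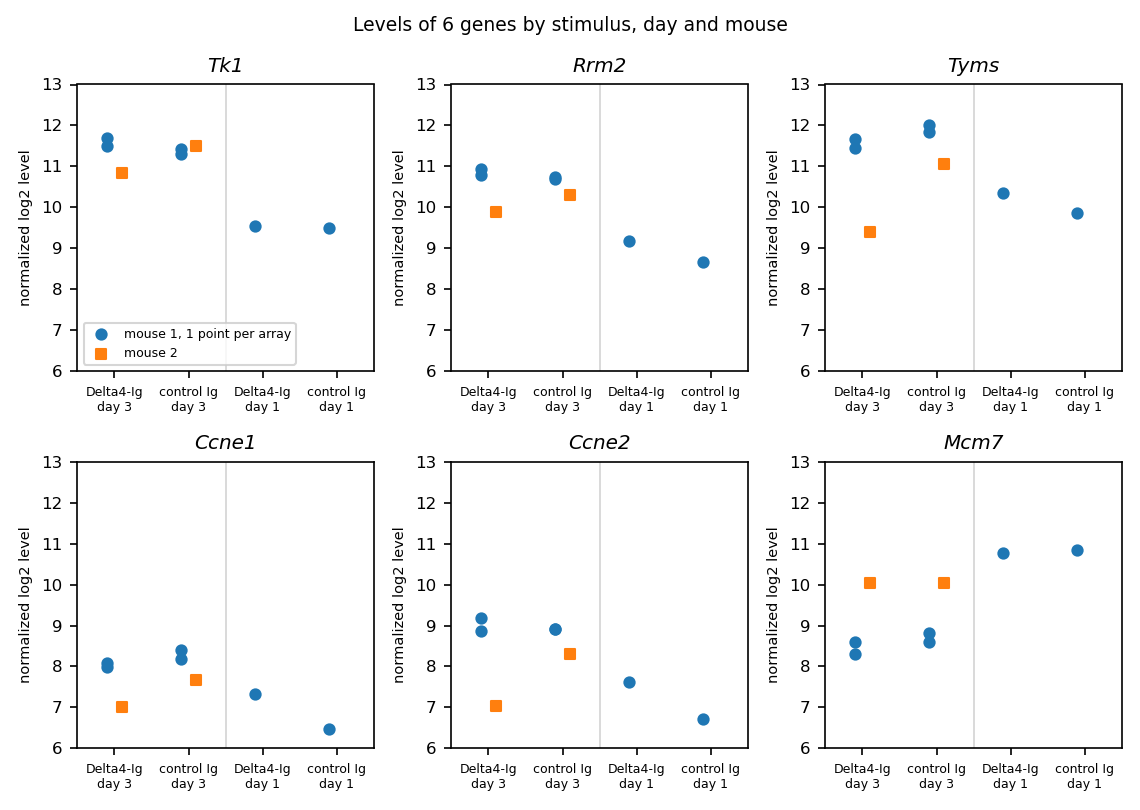
Normalized log2 level (vertical axis) of Tk1, Rrm2, Tyms, Ccne1, Ccne2 and Mcm7 by stimulus and day, with 1 point per array (circles, mouse 1, squares, mouse 2). Tk1 and Rrm2 lie higher in every day 3 sample than at day 1, the Delta4-Ig square of Tyms and of Ccne2 lies below the Delta4-Ig level of day 1, and for Mcm7 the squares of mouse 2 lie between the day 3 and day 1 circles of mouse 1.

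Mcm7 (chr5:138164583-138172111) fell. It stood at 8.45 in mouse 1 and 10.04 in mouse 2 with Delta4-Ig at day 3, and at 8.70 and 10.03 with control Ig, against 10.78 and 10.85 at day 1 with Delta4-Ig and control Ig. The blocked change was -2.24 ± 0.31 (limma adjusted p = 0.00904), and without the block, which brings in mouse 2, it was -1.51 ± 0.63 (adjusted p = 0.38). Mcm7 has 1 probe, so no second probe checks it. For Mcm2 to Mcm7 every day 3 sample lay below both day 1 samples. Mcm2, whose day 3 values are above, stood at 12.37 and 12.11 at day 1, a change of -1.12 ± 0.33 (limma adjusted p = 0.0900). Mcm3 stood at 9.90 and 9.30 with Delta4-Ig and at 9.92 and 9.85 with control Ig at day 3, against 11.14 and 10.67 at day 1. Within mouse 1 the difference between days came to -1.24 under Delta4-Ig and to -0.75 under control Ig (limma adjusted p = 0.113 for their mean). Neither Mcm2 nor Mcm3 passed. The days did not overlap for 10 genes lower at day 3, 7 of them licensing genes, and for 3 higher genes, against 22.9% and 18.3% of all genes.

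The well-known genes of the remaining roles did not pass the test between days. Pcna stood at 9.92 with Delta4-Ig and 9.82 with control Ig at day 1, within the range of its day 3 samples. Mcm5 stood at 13.96 and 13.92 at day 1, Cdc6 at 10.63 and 10.20, and E2f1 at 11.00 and 10.89. The blocked changes were 0.14 ± 0.32 for Pcna, -0.32 ± 0.33 for Mcm5, 0.46 ± 0.36 for Cdc6 and -0.51 ± 0.32 for E2f1, with limma adjusted p-values of 0.379 to 0.827. Fen1, Pole, Rfc5, Dut and Prim1 did not pass either, with changes of 0.10, -0.36, 0.84, -0.10 and -0.03.

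**Figure D5:**
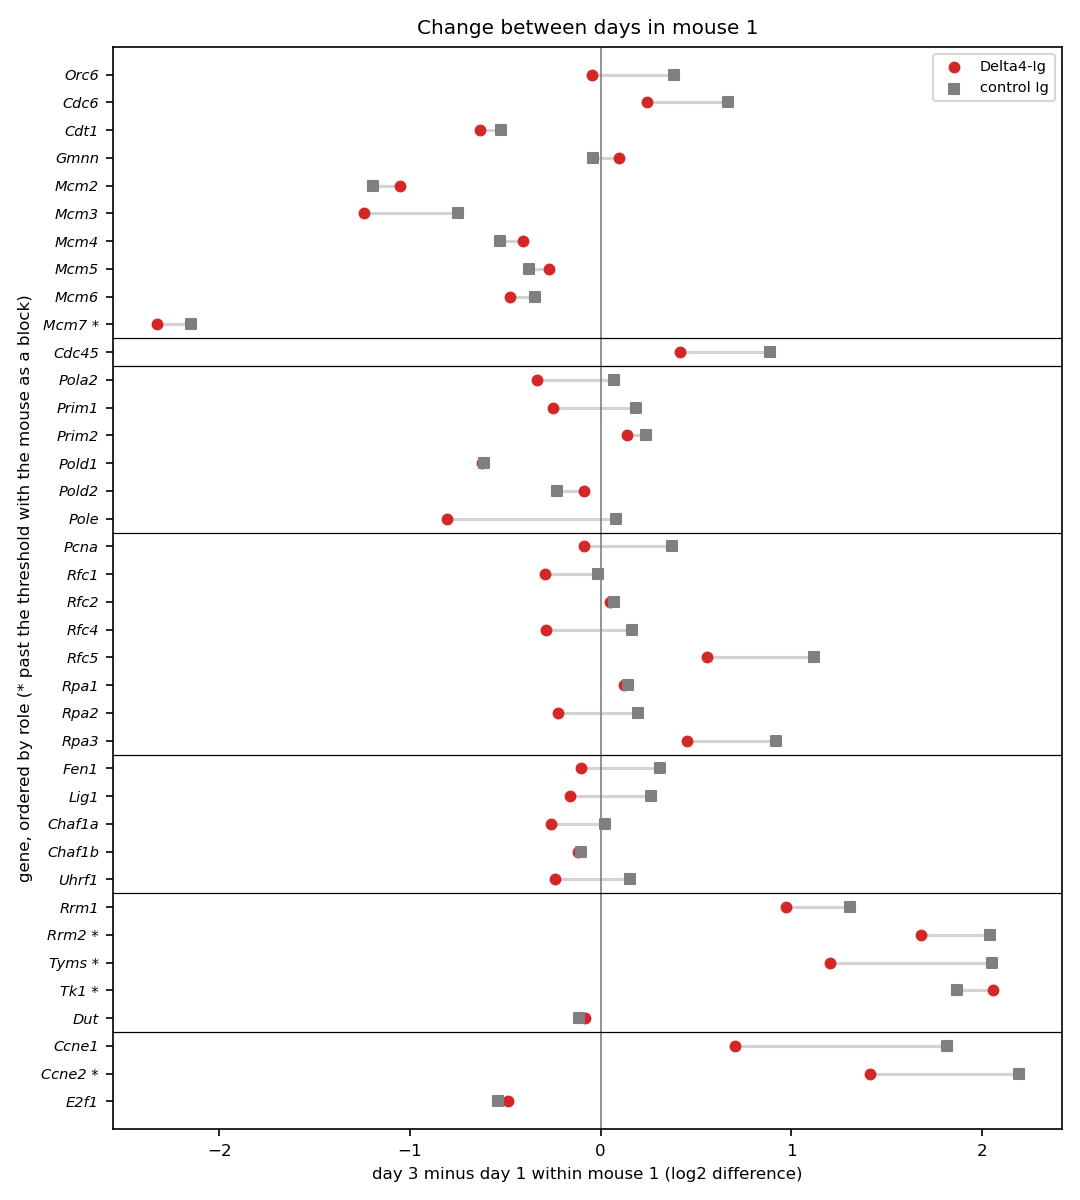
Day 3 minus day 1 within mouse 1 (log2 difference, horizontal axis) for each of the 38 genes with Delta4-Ig (circles) and control Ig (squares). An asterisk marks the 5 genes past an adjusted p of 0.05 in the blocked fit: Tk1, Rrm2, Tyms and Ccne2 to the right of 0 and Mcm7 to the left.

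Taken by stimulus, the changes within mouse 1 were of like size with Delta4-Ig and control Ig for Tk1 (2.06 and 1.87), Rrm2 (1.68 and 2.04) and Mcm7 (-2.33 and -2.15). They were further apart for Tyms (1.20 and 2.05), Ccne2 (1.41 and 2.19) and Ccne1 (0.71 and 1.82). These are values of the representative probes. A second Tk1 probe, detected on 7 arrays, changed by 1.26 with Delta4-Ig and 2.18 with control Ig, so the like size of Tk1 depends on the probe. The median change over the 38 genes in mouse 1 was -0.11 under Delta4-Ig and 0.15 under control Ig. With Delta4-Ig 4 genes were at least 2-fold higher and 3 lower at day 3 in mouse 1, against 10.8% and 7.77% of all genes. With control Ig 7 were at least 2-fold higher and 2 lower, against 9.99% and 7.85%. In the blocked fit the change with Delta4-Ig alone passed for 1 gene, Mcm7, lower (limma adjusted p = 0.0363), where 3.03% of all probes passed, 2.35% higher and 0.689% lower. The change with control Ig alone passed for Mcm7, lower (limma adjusted p = 0.0408), and Rrm2, higher (adjusted p = 0.0468), where 2.91% of all probes passed, 2.14% higher and 0.773% lower. Unlike the changes within mouse 1, these blocked changes of a single stimulus also draw on mouse 2 at day 3. The difference between the blocked changes is the contrast of days and stimuli above, which 0 genes passed. By role, the median change with day in the blocked fit was 1.63 for nucleotide supply, 1.26 for S phase entry, 0.10 for the clamp genes, -0.04 for fragment joining and chromatin assembly, -0.14 for polymerases and -0.44 for licensing. Without the block, where mouse 2 enters at day 3 only, the medians in the same order were 0.90, 0.86, -0.04, -0.18, -0.43 and -0.55, so the sign of the clamp genes turned.

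Other genes of DNA copying, from lists of the pathway, also gave no call between stimuli, and their medians were further below 0 in mouse 2 than in mouse 1. At day 3 in the blocked fit, 0 of 32 other fork and origin genes and 0 of 27 other nucleotide synthesis genes passed. Of 24 other chromatin copying and S phase genes, 0 passed. At an unadjusted p under 0.05 the counts were 1, 1 and 0, against 778 of all 7501 genes. The list medians in mouse 1 were -0.03, -0.02 and -0.01, and in mouse 2 they were -0.42, -1.07 and -0.54. Of the nucleotide synthesis genes 14 of 27 were at least 2-fold lower with Delta4-Ig in mouse 2, against 9.69% of all genes. Between the mice, Dctpp1, which clears modified dCTP, was 1.86 ± 0.31 lower in mouse 2 (limma adjusted p = 0.0318), and E2f2, another E2F factor, was 2.17 ± 0.33 higher (adjusted p = 0.0275).

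Between days these lists gave 1 call in 32 genes, 0 in 27 and 1 in 24, or 3.13%, 0% and 4.17%, against 8.31% of all genes in the blocked fit, a lower share. Top2a, the topoisomerase that untangles copied DNA, rose by 2.14 ± 0.31 (limma adjusted p = 0.00994, blocked), and Ccna2, for the S and G2 phase cyclin A2, rose by 1.49 ± 0.34 (adjusted p = 0.0413). Mitosis and spindle genes were set beside them as the next phase of the cycle. Only the 17 genes of that list past the detection filter were tested. The filter can be passed on day 3 arrays alone, and detection of these genes at day 1 is not given here. In the blocked fit 15 of the 17 rose between days and 0 fell, with a median of 2.89 (2.87 without the block). The largest were Nusap1 at 5.36 ± 0.31, Plk1 at 4.75 ± 0.32 and Tpx2 at 3.96 ± 0.32 (limma adjusted p of 0.00159 to 0.00234). The 38 S phase genes had a median of -0.02 in the blocked fit, with 18 higher at day 3, and of -0.14 without the block, with 13 higher.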

How the data were processed

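The authors deposited, in a non-normalized table, an intensity on a linear scale with its detection p-value for every probe. A second deposited table holds log2 values whose making is not stated. GenomeStudio and limma are named, without versions, per the submitters' processing notes. The deposited log2 values differed by at most 0.0417 from the intensities after background correction and quantile normalization (neqc of limma, offset 16), with r = 1.00 on each array, so they were taken as such and used. Each array had a median of 5.28.

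Of 25697 probes, 10744 had a detection p-value under 0.01 on at least 2 of 8 arrays and were kept. The platform annotation gave 23978 probes 1 symbol and 1719 none. Each gene was read from the probe of highest mean. Technical arrays were averaged. The groups were fitted with limma 3.58.1 in R 4.3.3 (lmFit, eBayes), first without and then with the mouse number as a block, with Benjamini-Hochberg adjustment over the kept probes at 0.05. The number marks 1 animal in the labels, and the difference between mice correlated between stimuli at r = 0.607 over probes, so the samples are paired. Rose and fell are used for genes past the threshold in the blocked fit, as the fit without it called none. The fits were tested on simulated data, and the outcome is not reported here. Since the fit without the block called no probe, the lack of a call in it does not show that a gene was unchanged.

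The 45 genes and the other lists were chosen with earlier results of these data known. Values per sample are given for genes past the threshold in either fit, the 6 with the largest differences at day 3 and between days, the 4 largest at day 1, those at least 0.5 apart the same way in both mice, those not detected in a group, and textbook genes of each role. Of the other lists at most the 3 largest calls are named. Promoter letters were searched with Python 3.11.15. A planned description of protein features was not run. With so few arrays, precision is limited throughout.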

Additional observations from a re-analysis of the deposited data

How the results depend on the processing

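The mouse number as a block changed the count of genes past the threshold between days to 5, against 0 without it, and changed no call at day 3 or in the contrast of days and stimuli. With the block, the count between days was 3 without background correction and 0 without the detection filter, which tests 25697 probes, and it ran from 4 to 7 under the other settings (neqc, an offset of 50, scaling to the 75th percentile, detection on all 8 arrays, either technical array alone, the mean of all probes of a gene). Mcm7, Rrm2 and Tk1 passed in each of these but the one without the detection filter. Tyms did not pass under neqc, without background correction, with an offset of 50, with the first array of mouse 1 alone or with the mean of probes. Ccne2 did not pass without background correction. The cause of these changes was not tested. Over all probes, the blocked fit called 82 at day 3 and 0 to 264 under these settings, 885 and 0 to 1458 between days, and 433 and 0 to 1556 between the mice. For the S phase genes, the count between the mice was 4 with 75th percentile scaling, 3 with detection on all 8 arrays and 3 with the second array of mouse 1, against 0. Leaving out each day 3 sample in turn, in the fit without the block, gave 0 genes past the threshold in each contrast, which says nothing of stability, since that fit called 0 probes with every sample in. The medians ran from -0.59 to 0.02 at day 3, the high end without the Delta4-Ig sample of mouse 2, from -0.25 to -0.04 between days and from -0.74 to -0.24 for the contrast of days and stimuli. In the blocked fit no such test was possible, since no residual degree of freedom is left. The lean at day 1 kept its direction in each setting run, with medians of 0.18 to 0.26. The shorter E2F letters GCGGGAA were found in 14 of 37 member promoters and 5.29% of all genes, where the 8-letter ones were found in 13 and 2.61%, and the 2 sets of members are not the same. Signal over background limits Gmnn and the 4 genes detected on no array.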

Other observations

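Probes of 1 gene did not always give like differences. For Lig1, 4 probes were detected on at least 2 arrays. The representative probe differed by -0.20 between mouse 2 and mouse 1 with Delta4-Ig and by 0.10 with control Ig, while another Lig1 probe differed by 1.64 and 1.13. That second probe was chosen after its values were seen, and its differences lay beside those of Mcm7, 1.59 and 1.33. For Rpa2, the second probe gave a day 3 difference between stimuli of 0.08, against -0.22 for the representative one. For Mcm6, the 4 detected probes gave -0.15 to -0.42 at day 3, and in mouse 1 they ran from -0.10 to 0.06.

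A change between the day 1 level of mouse 1 and the day 3 level of mouse 2 was largest among the 38 genes for Dut with Delta4-Ig, at -2.20, where both the day and the animal differ.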
